A study of Mus musculus with 9 samples.

Results

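RAW264.7 macrophages were sequenced after 3 treatments, and 255 genes formed the set described here. Their mRNA level was about the same in DMSO and in LPS and was lower when skatole was added to LPS. They are 2.91% of the 8766 genes that could have entered the set, in a table of 55401 genes. Skatole, 3-methylindole, is a product of tryptophan breakdown by gut bacteria and a ligand of the aryl hydrocarbon receptor. LPS is a component of the wall of Gram-negative bacteria, and it drives macrophages toward the inflammatory M1 state.

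RAW264.7 is a mouse line, labelled wild type (WT), that was derived from male Abelson murine leukemia virus-induced tumors. All 9 samples therefore come from 1 transformed line. The DMSO group received the solvent alone, the LPS group received DMSO + LPS, and the LPS + Ska group received LPS + skatole. Each group had 3 samples, which the authors numbered 5, 6 and 7. Treatment lasted 24 h per the labels, whereas a longer time stands in the methods, and the dose of skatole given to the sequenced cells is not stated in the sources used here. No group received skatole without LPS, so every LPS + Ska value below is the level of a gene under LPS and skatole together. The labels do not say whether the samples came from separate cultures.

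The values are TPM, which gives each gene's length-corrected part of all transcripts in a sample. All differences below are differences of log2(group mean TPM + 1), which understates the change of genes with a low TPM. The genes were chosen by their TPM in all 3 groups. A gene entered the set when its mean TPM over the 9 columns was at least 5, LPS and DMSO differed by less than 0.4, and LPS + Ska lay more than 0.5 below LPS. All 3 LPS + Ska columns also had to lie below all LPS and all DMSO columns, which 21.6% of the 8766 genes did. Genes of the mitochondrial genome, of ribosomal proteins and of several respiratory chain families were left out by symbol, as were predicted genes. Because these values chose the genes, the differences of the set between the 3 groups are a description and were not tested.

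Columns were tied in LPS and in LPS + Ska. In both groups, replicate 5 equalled the mean of replicates 6 and 7 within 1e-05 TPM in all 255 genes, whereas this was so in 0 of the 255 genes in DMSO. No more than 2 independent values per gene are thus held by either group, and the SDs given for them are those of the columns as the authors deposited them. The number of reads behind the values is unknown, since it cannot be read from TPM. Of 10 macrophage markers, 9 had at least 5 TPM in every column, and Mertk was listed at 0 in all of them. None of 15 markers of T cells, B cells, fibroblasts, epithelium and endothelium reached 1 TPM in any column. In bulk RNA, fewer cells of a kind and less RNA per cell cannot be told apart.

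A gene that is insensitive to a stimulus after a day can still be a gene that the stimulus moves briefly. Immediate-early genes such as Egr1 are switched on within minutes by growth factors and by Toll-like receptor ligands, and then fall back. Housekeeping regulators of chromatin, splicing, DNA repair and membrane traffic are usually steady under LPS. Very long genes are a further class of their own, since RNA polymerase II takes long to cross them and each mRNA needs elongation to be sustained over the whole gene.

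Across the 255 genes, the median difference between LPS + Ska and LPS was -0.61, and the single values ranged from -1.52 to -0.50. The median over all 8766 genes was -0.10. The difference was below -0.75 in 55 of the 255 genes and below -1 in 14. Between LPS and DMSO the median was -0.03, with 110 genes higher and 145 genes lower in LPS, and between LPS + Ska and DMSO it was -0.67. The genes ranged widely in level, from a mean of 5.15 TPM to 1689 TPM, with a median of 17.6 TPM.

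The summed TPM of the set was between 14357 and 14424 in the DMSO columns, between 13724 and 14189 in the LPS columns, and between 8583 and 9323 in the LPS + Ska columns. The sums of the LPS + Ska columns were all lower, which the rule required, and they also differed more among themselves. Relative to the DMSO mean, the median gene of the set stood at -0.56 in LPS + Ska replicate 6, at -0.66 in replicate 5 and at -0.76 in replicate 7. The median SD of a gene over the columns on the log2 scale was 0.16 in LPS + Ska, 0.06 in LPS and 0.12 in DMSO. Over all 8766 genes it was 0.12 in LPS + Ska, 0.05 in LPS and 0.11 in DMSO, so the low spread in LPS was not particular to the set. Because of the tied columns, the SDs of LPS and LPS + Ska are not directly comparable with that of DMSO.

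**Figure D1:**
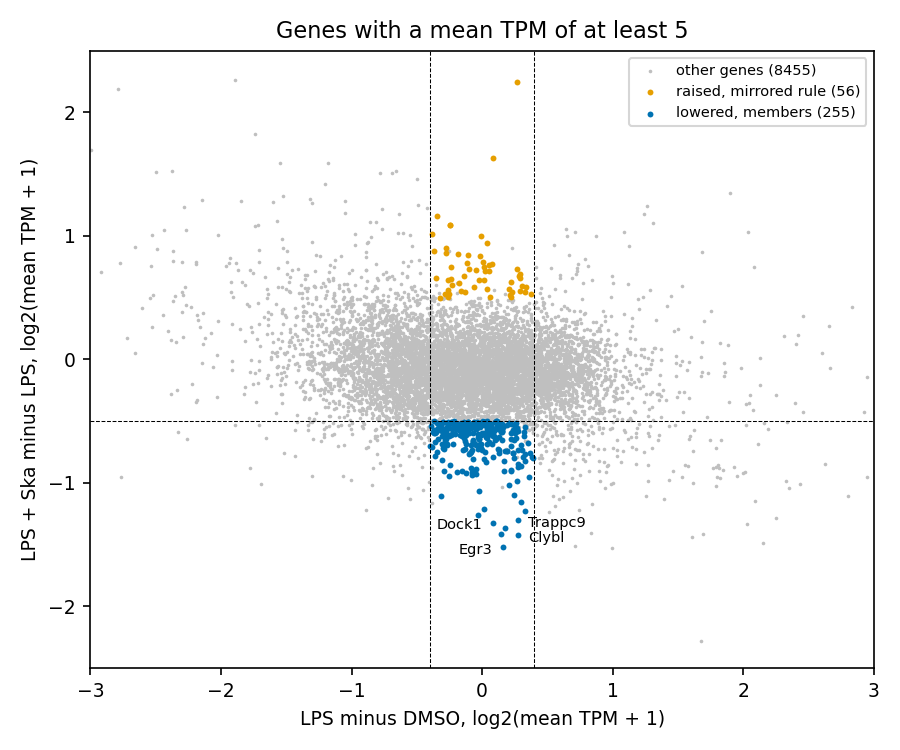
Each point is 1 of the 8766 genes that could have entered the set, with a mean of at least 5 TPM and without the symbols left out. The x axis is the difference LPS minus DMSO and the y axis LPS + Ska minus LPS, both in log2(mean TPM + 1). The 255 genes of the set (blue) lie between the vertical lines at -0.4 and 0.4 and below the horizontal line at -0.5, the mirrored rule gives 56 raised genes (orange), and 56 points lie outside the axes.

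The rule turned upside down, with the same limits, gave 56 genes that were raised. The 255 lowered genes became 120 after median-ratio scaling, which moves the median over all 8766 genes from -0.10 to 0.004. The raised genes were not recounted with that scaling, so how far the 2 counts differ apart from scaling was not tested. A further 45 genes passed all limits but had overlapping columns, and 155 were lowered as clearly but had moved with LPS by 0.4 or more. The limit at -0.5 cut through a continuous range. Just inside it lay Fxyd5, a regulator of the sodium pump, Epb41l2, a linker of membrane and actin, and the cytokine precursor Il16, all at -0.50. Just outside lay the DNA methyltransferase Dnmt3a, the zinc finger gene Zfp142 and Taf8, a subunit of TFIID, also at -0.50 after rounding. The number of genes depended on 1 LPS + Ska column: it was 386 without replicate 6 and 213 without replicate 7, of which 241 and 173 were among the 255.

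The immediate-early genes Egr3, Egr1 and Nr4a2 were among the 12 lowest genes of the set. Egr3, a zinc finger transcription factor induced by antigen and growth factor signals, was measured at 10.2, 15.6 and 21.8 TPM in DMSO, at 17.9, 18.4 and 17.3 TPM in LPS and at 5.56, 5.77 and 5.34 TPM in LPS + Ska. It was low in all LPS + Ska columns and its DMSO columns spread widely. Its mean was 15.9 ± 5.79 TPM (SD, n = 3) in DMSO, 17.9 ± 0.558 TPM in LPS and 5.56 ± 0.217 TPM in LPS + Ska, which is 31.1% of the LPS mean and a difference of -1.52.

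Egr1, the founding member of the same family, was measured at 54, 71.9 and 94.9 TPM in DMSO, at 83.5, 73.1 and 93.8 TPM in LPS and at 31.7, 29.0 and 34.4 TPM in LPS + Ska. The lowest DMSO column was well above the highest LPS + Ska column, although the DMSO columns were widely spread. The LPS + Ska mean was 38.0% of the LPS mean, a difference of -1.37. Nab2, which encodes a co-repressor that binds Egr1 and Egr3 and is itself induced by them, was measured at 36.8, 44.4 and 41.2 TPM in DMSO, at 47.1, 48.1 and 46.2 TPM in LPS and at 22.8, 21.0 and 24.6 TPM in LPS + Ska, a difference of -1.01. Nab2 overlaps the end of Stat6 and the library kit does not mark strand, so reads of the 2 genes cannot be told apart where they overlap. Stat6 differed by -0.05.

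Nr4a2, an orphan nuclear receptor that limits inflammatory transcription in macrophages, was measured at 5.63, 5.41 and 12.7 TPM in DMSO, at 8.01, 8.52 and 7.49 TPM in LPS and at 2.88, 3.42 and 2.33 TPM in LPS + Ska, a difference of -1.22. One DMSO column was far above the other two. Cd83, a surface protein of activated antigen-presenting cells, differed by -1.07 with DMSO columns of 18.6, 21.2 and 40.0 TPM and LPS + Ska columns of 12, 11.4 and 12.6 TPM. Id2, an inhibitor of basic helix-loop-helix factors, differed by -0.91, and the kinase gene Pim1 differed by -0.68. In Egr1, Egr3, Nr4a2, Pim1 and Cd83, DMSO replicate 7 was the highest DMSO column. These 7 genes were grouped after their values had been seen, with no count of how many immediate-early genes could have entered, and none of them spans over 100 kb of the genome.

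**Figure D2:**
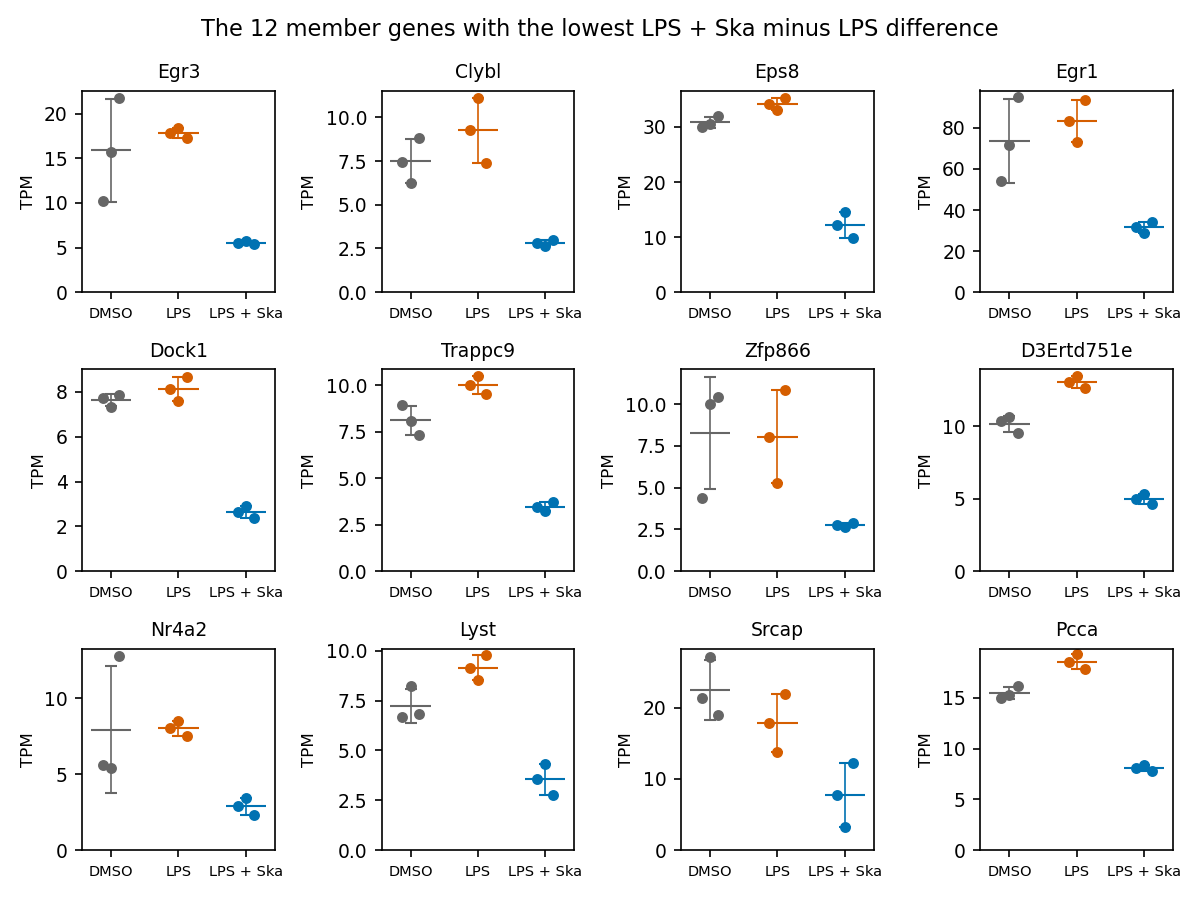
TPM in each of the 9 columns (points, replicates 5, 6 and 7 from left to right) for the 12 genes of the set with the lowest LPS + Ska minus LPS difference, with the mean (horizontal line) and SD (error bar). In all 12 genes the 3 LPS + Ska points lie below the DMSO and LPS points, which the rule required, and the DMSO points of Egr3, Egr1, Zfp866 and Nr4a2 are widely spread.

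The start of Nr4a2 was looked at because cAMP response elements, which bind CREB family factors, are a well-known feature of its promoter. The 250 bases before its start, chr2:57124004-57124253 on the minus strand of GRCm38.p6 (RefSeq), are shown with the core element tgacg and its reverse complement in capitals.

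Nr4a2: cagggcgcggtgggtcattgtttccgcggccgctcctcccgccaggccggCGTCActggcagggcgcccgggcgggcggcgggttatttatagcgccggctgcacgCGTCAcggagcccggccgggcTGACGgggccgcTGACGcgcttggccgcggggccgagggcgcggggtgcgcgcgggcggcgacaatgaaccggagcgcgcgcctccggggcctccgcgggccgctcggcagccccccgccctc

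The stretch holds 4 such elements, 2 on each strand. TGACG on either strand was found in the promoters of 67 of 209 genes of the set (32.1%) and of 2720 of 7028 genes overall (38.7%), so it was not more frequent in the set. A promoter here is the 250 bases before and 50 bases after an annotated start, and a match is a run of letters and not a measured binding site. A gene with several annotated starts was counted if any of its promoters matched, and the number of starts was not taken into account. Of the 255 genes, 209 had a promoter in the RefSeq table, and Egr1, Egr3 and Cd83 had none.

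Of 17 motifs searched on both strands, 15 differed by less than 5 percentage points between the set and all genes. Motifs that are rare in all genes could hardly reach such a gap, so this count does not show that their shares were alike. GCGTG, the core of the element bound by the aryl hydrocarbon receptor, was found in 67.0% of the set and 59.3% of all genes. The cAMP response element TGACGTCA was found in 6.22% and 3.93%, the E2F motif TTTCCCGC in 5.74% and 2.80%, and the ETS motif CCGGAAG in 19.1% and 23.7%. The NF-kappaB motif was rare in both, at 1.44% and 0.498%. The share was likewise within 5 points of that over all genes for AP-1 (TGANTCA), the E-box CACGTG, the GC box GGGGCGGGG, CCAAT, NRF2 (TGACNNNGC), PU.1 (GAGGAAGT) and the TATA box TATAAA, and for the longer motifs of NRF1, YY1 and the interferon-stimulated response element. GCGTGGGCG, the motif of Egr factors, which contains GCGTG, was found in 8 of 209 genes (3.83%) and in 110 of 7028 genes (1.57%).

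The 8 genes with this letter string are shown, with 1 window each, because Egr1 and Egr3 are among the 12 lowest genes. Usp28 holds another match, at chr9:48985135-48985163, which is not printed. Each window is printed 5′ to 3′ on the strand of its gene, with GCGTGGGCG or its reverse complement in capitals, and coordinates are those of GRCm38.p6.
Polm (chr11:5838139-5838167): aggggaagtgGCGTGGGCGctctgtcacc
Scaf4 (chr16:90284538-90284566): gaggggcgggGCGTGGGCGgagccaagca
Usp28 (chr9:48985313-48985341): gagcgggctgGCGTGGGCGgggcttccat
Ada (chr2:163750220-163750248): tgtgggcgtaGCGTGGGCGgggctgtgcc
Ddhd1 (chr14:45658177-45658205): cctgtggcccCGCCCACGCagggctgcgt
Dis3l2 (chr1:86703657-86703685): aggcgggagcCGCCCACGCgggatgagcc
Hivep1 (chr13:42051999-42052027): cctgctgcccCGCCCACGCgcggggggaa
Shcbp1l (chr1:153425130-153425158): cttcatttccCGCCCACGCatgtgctcgc
The 8 genes differed by between -0.79 (Shcbp1l) and -0.51 (Hivep1), which is within the range of the set. Polm is a DNA polymerase of end joining, Ada is adenosine deaminase, Dis3l2 is an exoribonuclease, Usp28 is a deubiquitinase and Hivep1 is a zinc finger factor.

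The set differed from other genes in a property the rule did not use, the length of genome that a gene spans. The span was taken from GENCODE M21 on GRCm38, in which 253 of the 255 genes were found, and runs from the first to the last base of the gene with introns. The median span was 60.7 kb in the set and 24.3 kb over all genes that could have entered the set. It was 26.4 kb in the 3956 genes that neither LPS nor skatole moved past the limits, and 12.7 kb in the 56 raised genes. Of the 253 genes, 100 (39.5%) spanned over 100 kb, compared with 10.4% of all genes, 9.68% of the genes not moved and 5.36% of the raised genes. Over 300 kb were 20 genes of the set (7.91%) and 1.10% of all genes.

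The share of genes that belonged to the set rose with the span. It was 1.44% up to 10 kb, 1.68% from 10 to 30 kb, 2.61% from 30 to 100 kb, 9.79% from 100 to 300 kb and 20.8% over 300 kb, where 20 of 96 genes belonged. Among the genes that met the LPS limit alone, the shares in the same bins were 3.54%, 3.42%, 4.86%, 17.5% and 44.4%, the last being 20 of 45 genes. On this basis the share did not rise up to 30 kb. Long genes also tend to have long transcripts and low TPM, and the share was higher in genes over 100 kb within every class of both. With a transcript of 1500 to 3000 nt it was 14.9% over 100 kb and 1.43% for shorter genes, and with a transcript of 8000 nt or more it was 13.9% and 5.43%. At a mean of 5 to 10 TPM it was 18% and 3.61%, and at 30 to 100 TPM it was 5.51% and 1.55%. In the class of transcripts under 1500 nt only 15 genes spanned over 100 kb, and at 100 TPM or more only 42 did, of which 1 belonged to the set.

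**Figure D3:**
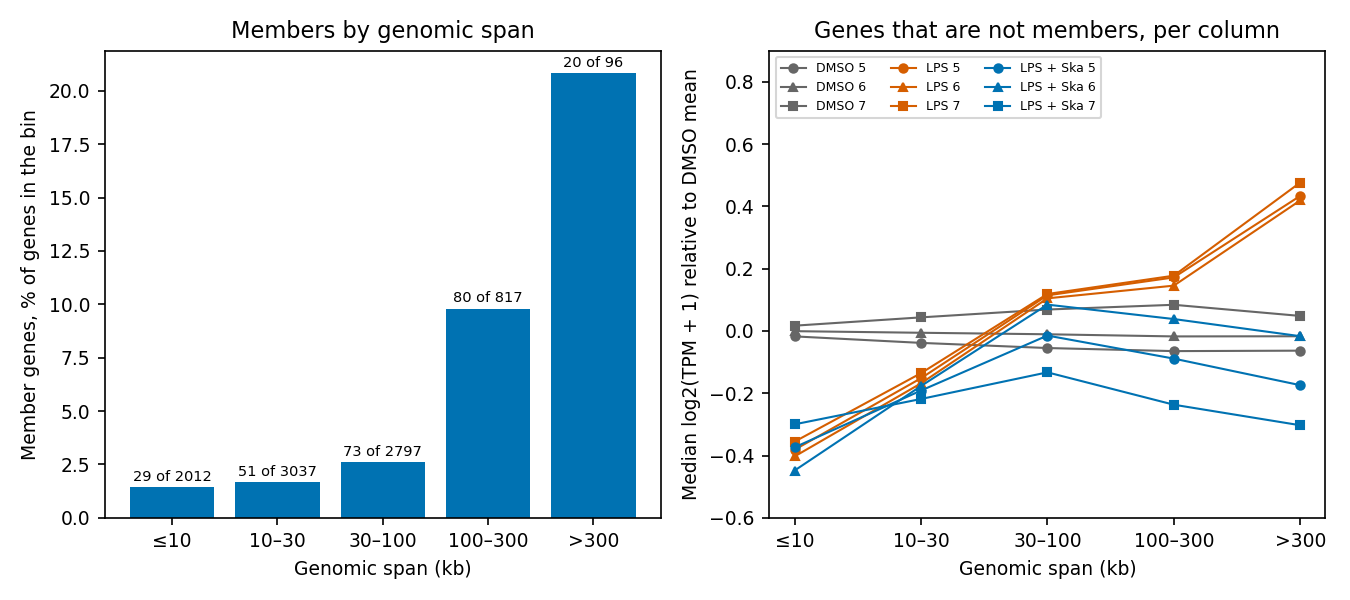
Left, the genes of the set as a percentage of all genes in 5 bins of genomic span in kb, with the counts above the bars, rising from 1.44% to 20.8%. Right, for the 8455 other genes, the median log2(TPM + 1) relative to the DMSO mean in each of the 9 columns by the same bins, with the LPS columns (orange) highest for the longest genes and the LPS + Ska columns (blue) below them.

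The longest genes of the set included Cdkal1 (664 kb), a tRNA-modifying enzyme, Cdk14 (617 kb), a cyclin-dependent kinase, and Fars2 (609 kb), the mitochondrial phenylalanyl-tRNA synthetase. They differed by -0.52, -0.64 and -0.79. Slc39a11 (405 kb), a zinc transporter, differed by -0.83, Fto (355 kb), an RNA demethylase, by -0.61, and Ube2e2 (321 kb), a ubiquitin-conjugating enzyme, by -0.94. Within the set a longer span did not always go with a lower value, since Elmo1 (518 kb) differed by -0.65 and Egr3 (5.41 kb) differed by -1.52.

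The dependence on span extended beyond the set. Among the other genes, those over 300 kb had a median difference between LPS + Ska and LPS of -0.45 and those up to 10 kb of -0.01. Between LPS and DMSO the order was the opposite, with a median of 0.43 over 300 kb and -0.38 up to 10 kb. The gap between the medians of 810 genes over 100 kb and 1962 genes up to 10 kb, none of them of the set or of the raised genes, was between -0.05 and 0.06 in the DMSO columns and between 0.55 and 0.58 in the LPS columns. In LPS + Ska it was 0.28 in replicate 5, 0.47 in replicate 6 and 0.05 in replicate 7. All LPS + Ska columns were thus below all LPS columns, but these stand for 2 independent values a group and replicates 6 and 7 lay far apart. The mean gap was 0.27 ± 0.21 (SD, n = 3 columns) in LPS + Ska and 0.56 ± 0.01 in LPS, a difference of -0.30 that was -0.19 without LPS + Ska replicate 7 and -0.40 without replicate 6. With the trend of each column on genomic span removed, an alternative chosen after the data had been seen, the rule gave 163 genes. Of these, 118 were among the 255. The contribution of the gap to the membership of single genes was not tested beyond this recount.

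Transcripts of the set were also longer, with a median of 4367 nt compared with 3089 nt over all genes, and had a median of 15 exons compared with 9. Their median GC content was 51.4% compared with 49.7%. Of the 999 genes with a GC content of up to 42%, 3 belonged to the set (0.30%), whereas from 54% to 58% it was 65 of 1623 genes (4.0%). From 46% to 50% the share was already 3.44%, and over 58% it was lower again, at 23 of 827 genes (2.78%). Only 160 of these 827 genes met the LPS limit. Among the genes that met the LPS limit alone, the share rose from bin to bin. It was 0.75% up to 42%, 5.03% from 46% to 50%, 11.8% from 54% to 58% and 14.4% over 58%. The genes were spread over the autosomes and X, with 5 on X and between 1.93% and 4.32% of the genes of each autosome, on chromosomes 12 and 16.

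Of the 12 genes with the lowest differences, 6 spanned over 100 kb, and none of these was an immediate-early gene. Dock1, an exchange factor that activates Rac when macrophages engulf apoptotic cells, was measured at 7.71, 7.33 and 7.88 TPM in DMSO, at 8.13, 7.58 and 8.69 TPM in LPS and at 2.64, 2.89 and 2.39 TPM in LPS + Ska. The columns within each group were close together and the LPS + Ska mean, 2.64 ± 0.251 TPM, was 32.4% of the LPS mean. Dock1 spans 503 kb of chromosome 7 (134670654 to 135173639) in 52 exons.

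Eps8, which caps and bundles actin filaments, was measured at 29.95, 30.6 and 32.0 TPM in DMSO, at 34.2, 33.1 and 35.4 TPM in LPS and at 12.2, 14.5 and 9.83 TPM in LPS + Ska, a difference of -1.42. It had the highest level of the long genes among the 12. Trappc9, a subunit of a tethering complex of the secretory pathway, was measured at 8.91, 8.08 and 7.35 TPM in DMSO, at 10.0, 10.5 and 9.54 TPM in LPS and at 3.46, 3.22 and 3.70 TPM in LPS + Ska, a difference of -1.30. Lyst, the lysosomal trafficking regulator that is mutated in Chediak-Higashi syndrome, was measured at 6.66, 8.22 and 6.84 TPM in DMSO, at 9.15, 8.54 and 9.77 TPM in LPS and at 3.55, 4.31 and 2.78 TPM in LPS + Ska, a difference of -1.16. All 3 genes were slightly higher in LPS than in DMSO, by 0.15, 0.27 and 0.30.

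Clybl and Pcca, a pair of mitochondrial enzymes of acyl-CoA metabolism, were also among the 12 lowest genes. Clybl, citramalyl-CoA lyase, which clears a product of the antimicrobial metabolite itaconate, was measured at 7.45, 6.25 and 8.80 TPM in DMSO, at 9.27, 11.1 and 7.42 TPM in LPS and at 2.82, 2.67 and 2.97 TPM in LPS + Ska. Its LPS columns overlapped those of DMSO and its LPS + Ska mean was 30.4% of the LPS mean. Pcca, the biotin-carrying subunit of propionyl-CoA carboxylase, was measured at 15.0, 15.3 and 16.2 TPM in DMSO, at 18.6, 19.3 and 17.9 TPM in LPS and at 8.12, 8.39 and 7.84 TPM in LPS + Ska, a difference of -1.10. Pcca overlaps Ggact, which differed by 0.47 in the other direction, and reads of the overlap cannot be told apart. Other mitochondrial enzymes of the set were nearer to the limit. Bckdhb, a subunit of the branched-chain keto acid dehydrogenase, differed by -0.76, Hlcs, which attaches biotin to carboxylases, by -0.56, and Acad11, an acyl-CoA dehydrogenase, by -0.52. These 5 genes were also put together after their values were seen, and 4 of them span over 100 kb. Acaca, the biotin-dependent acetyl-CoA carboxylase of fatty acid synthesis, had 19.9, 19.5 and 12.1 TPM as means of DMSO, LPS and LPS + Ska.

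D3Ertd751e, a gene of little known function, differed by -1.23 with 4.98, 5.33 and 4.62 TPM in LPS + Ska and between 9.52 and 13.5 TPM in the other columns. Zfp866, a zinc finger gene, differed by -1.26, but its columns ran from 4.40 to 10.4 TPM in DMSO and from 5.28 to 10.8 TPM in LPS, and it overlaps Atp13a1. Srcap was the most variable of the 12 in LPS + Ska and is described with the chromatin regulators.

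The genes of the set were counted in 20 lists of gene families, of which 69 of the 255 genes were part. Where genes of a list outside the set are mentioned, they were tested with limma across 12819 genes. Of the 12819 genes, 6.14% were called lower and 3.35% higher in LPS + Ska compared with LPS. The limits were 0.05 for the p adjusted by Benjamini-Hochberg and 0.67 and 1.5 for the fold change. The 12819 genes include those of the set, which were chosen on this contrast and are left out of the list counts. The 6.14% is therefore not a like-for-like background for those counts, and the share without the set was not computed. After median-ratio scaling, which moves the centre of all genes, 540 genes were called lower and 595 higher instead of 787 and 429. With tied columns these tests rest on fewer independent values than their columns.

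**Figure D4:**
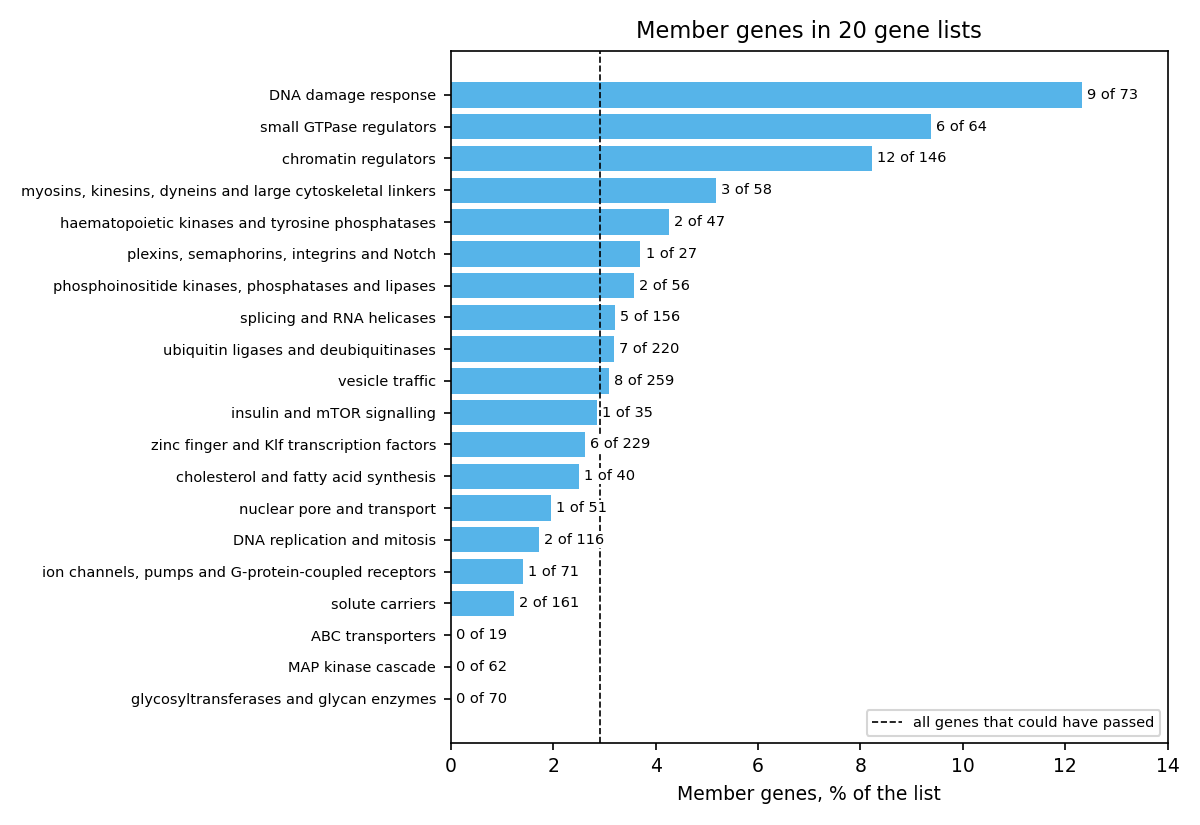
Genes of the set as a percentage of each of 20 gene lists, counting only genes that could have entered the set, with the counts beside the bars. The dashed line is the share over all such genes, 2.91%. The lists of DNA damage response, regulators of small GTPases and chromatin regulators have the highest shares, and 3 lists hold no gene of the set.

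Genes of the DNA damage response made up 9 of 73 (12.3%). Fance and Fancc belong to the Fanconi anaemia pathway, Brca2 and Palb2 serve homologous recombination, Prkdc and Xrcc6 serve end joining, Msh3 mismatch repair, and Wrn is a RecQ helicase. Fance was measured at 26.4, 21.3 and 28.9 TPM in DMSO, at 20.6, 20.3 and 20.9 TPM in LPS and at 12.1, 10.5 and 13.7 TPM in LPS + Ska, a difference of -0.72. Parp3, which responds to strand breaks, also differed by -0.72, and Prkdc, the catalytic subunit of DNA-dependent protein kinase, by -0.65. The other 6 lay between -0.59 and -0.54. Of the 9 genes, 4 spanned over 100 kb, compared with 7 of the 73. Of 70 genes of the list outside the set, 9 were called lower and 1 higher. The related list of DNA replication and mitosis had 2 of 116 genes in the set, Mki67, the proliferation antigen, at -0.70 and Mcm7, a subunit of the replicative helicase, at -0.54.

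Regulators of small GTPases made up 6 of 64 (9.38%), and all 6 spanned over 100 kb, as 33 of the 64 did. Dock1, Dock2 and Dock8 are exchange factors for Rac or Cdc42, Elmo1 is the partner of Dock1 and Dock2, and Arhgap35 and Arhgap18 are GTPase-activating proteins. Elmo1 was measured at 50.2, 46.2 and 47.4 TPM in DMSO, at 53.2, 52.9 and 53.6 TPM in LPS and at 33.5, 38.8 and 28.2 TPM in LPS + Ska. Dock2, the main leukocyte member, had means of 44.9, 41.7 and 27.2 TPM and differed by -0.60, less than Dock1. Arhgap35 differed by -0.61, Dock8 by -0.55 and Arhgap18 by -0.52. Of 79 further genes of the list, 15 were called lower and 1 higher.

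Chromatin regulators made up 12 of 146 (8.22%). Srcap, the ATPase that deposits the histone variant H2A.Z, was measured at 21.3, 27.1 and 19.0 TPM in DMSO, at 17.9, 13.8 and 21.9 TPM in LPS and at 7.78, 3.26 and 12.3 TPM in LPS + Ska. The highest LPS + Ska column was close to the lowest LPS column, and the SD of LPS + Ska was 4.52 TPM at a mean of 7.78 TPM.

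Further chromatin regulators of the set were the remodellers Chd6 (-0.68), Arid1a (-0.64) and Ep400 (-0.56), and the histone H3K4 methyltransferases Kmt2a (-0.66), Kmt2d (-0.59) and Setd1a (-0.54). Others were the acetyltransferase Ep300 (-0.51), the co-repressor Bcor (-0.58), its partner demethylase Kdm2b (-0.50) and Phf12 (-0.58), a subunit of a Sin3 complex. Arid1a had means of 58.5, 53.0 and 33.6 TPM in DMSO, LPS and LPS + Ska. Of the 12 genes, 5 spanned over 100 kb, compared with 37 of the 146. Of 150 further genes of the list, 8 were called lower and 2 higher.

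Further co-regulators of transcription were picked from the set after their values were seen, with no count of how many could have entered. Med12 and Med15, subunits of the Mediator complex, differed by -0.75 and -0.66, Spen, a large co-repressor, by -0.93, Crtc2, a CREB co-activator, by -0.66, and Carm1, an arginine methyltransferase, by -0.52. Rara, the retinoic acid receptor alpha, differed by -0.88, Mef2c, a transcription factor of myeloid cells, by -0.56, and Nrip1, a nuclear receptor co-repressor, by -0.52. Med12 and Spen were low in LPS + Ska replicate 7, at 10.6 and 8.0 TPM, and higher in replicate 6, at 22.2 and 15.6 TPM. Of these 8 genes, 1 (Mef2c) spans over 100 kb.

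Large cytoskeletal proteins made up 3 of 58 (5.17%). Myo9b, a motor with a GTPase-activating domain, differed by -0.79 and Myo1e, a class I myosin of phagocytic cups, by -0.67. Myo9b was at 22.6, 22.6 and 22.7 TPM in LPS + Ska and between 37.4 and 55.7 TPM elsewhere. Of 64 further genes of the list, 9 were called lower and 1 higher.

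In 4 larger lists the share of the set was near that over all genes. Ubiquitin ligases and deubiquitinases made up 7 of 220 (3.18%), with 10 of 245 further genes called lower and 4 higher. Huwe1, a giant HECT ligase, was measured at 68.8, 62.6 and 69.7 TPM in DMSO, at 75.6, 74.9 and 76.3 TPM in LPS and at 42.2, 51.4 and 33.0 TPM in LPS + Ska, a difference of -0.83. Ubr4, a ligase of the N-degron pathway, differed by -0.69 and Klhl11, a cullin adaptor, by -0.58.

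Splicing factors and RNA helicases made up 5 of 156 (3.21%), with 5 of 156 further genes called lower and 0 higher. Srrm2, a scaffold of nuclear speckles, was measured at 274, 254 and 216 TPM in DMSO, at 203, 209 and 196 TPM in LPS and at 108, 132 and 84.0 TPM in LPS + Ska, a difference of -0.90. Prpf8, the core protein of the spliceosome, and Prpf40b both differed by -0.59, Ddx39b, an mRNA export helicase, by -0.54 and Rbm33 by -0.50.

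Vesicle traffic genes made up 8 of 259 (3.09%), with 8 of 280 further genes called lower and 6 higher. Of the 8 genes, 6 spanned over 100 kb, compared with 39 of the 259. Besides Trappc9 they included the lipid transfer proteins Vps13d (-0.89) and Vps13b (-0.55), the Rab GTPase-activating proteins Tbc1d5 (-0.85) and Tbc1d22a (-0.55), and the tethering subunits Vps8 (-0.58) and Vps39 (-0.55). Zinc finger and Klf transcription factors made up 6 of 229 (2.62%), with Egr3, Egr1 and Zfp866 at the low end, and Zfp628 (-0.69), Zbtb49 (-0.52) and Zfp335 (-0.51) nearer to the limit. Of 353 further genes of that list, 10 were called lower and 3 higher.

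No gene of the set was found among 70 glycosyltransferases and glycan enzymes, 62 genes of the MAP kinase cascade or 19 ABC transporters. At the share over all genes, 2.91%, lists of this size would hold few, so no weight is put on their absence. The remaining 9 lists held 1 or 2 genes each. They included Itga4, the alpha subunit of the integrin VLA-4, the phosphoinositide phosphatases Inpp5b and Fig4, and the signalling proteins Tec and Blnk.

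Some genes with roles in innate immunity were in the set, picked here after their values were seen and with no count of how many such genes could have entered. Stat2, which carries the type I interferon signal, was measured at 12.9, 17.7 and 14 TPM in DMSO, at 12.4, 14.8 and 9.96 TPM in LPS and at 6.38, 7.50 and 5.26 TPM in LPS + Ska, a difference of -0.86. Pml, the organiser of nuclear bodies, differed by -0.98, Sp110, another nuclear body protein, by -0.74, and Trafd1, a negative regulator of Toll-like receptor signalling, by -0.75. Tlr9, the receptor for unmethylated DNA, was at 6.64, 7.60 and 6.97 TPM in DMSO, at 5.84, 6.57 and 5.11 TPM in LPS and at 3.48, 4.40 and 2.56 TPM in LPS + Ska.

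From the NF-kappaB pathway, Relb differed by -0.53 and the inhibitor Nfkbie by -0.62. Apobec3, which restricts retroviruses, differed by -0.54 and Znfx1, a helicase that senses viral RNA, by -0.65. Fcgr1, the high-affinity Fc receptor and 1 of the 10 macrophage markers, was at 30.3, 31.4 and 29.9 TPM in DMSO, at 34.1, 33.6 and 34.5 TPM in LPS and at 22.4, 22.6 and 22.1 TPM in LPS + Ska, a difference of -0.59. Among the other markers, the LPS + Ska mean exceeded the LPS mean for Lyz2 (10061 and 4423 TPM), Cd14 (2218 and 1523 TPM), Itgam (80.7 and 61.2 TPM) and Ptprc (113 and 101 TPM). It was below the LPS mean for Csf1r (467 and 522 TPM), Cd68 (608 and 657 TPM), Adgre1 (19.7 and 20.7 TPM) and Spi1 (230.2 and 232.9 TPM). The part of these levels in the values of the set was not tested. None of the 10 innate immunity genes of the set named here, from Stat2 to Fcgr1, spans over 100 kb.

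Of genes known for ribosome biogenesis, the set held Urb1, Noc2l, Noc4l, Rrp12, Rrp1b, Tcof1 and Polr1a, the largest subunit of RNA polymerase I, all near the limit at between -0.59 and -0.51. Noc2l was at 163, 165 and 160 TPM in LPS + Ska and between 221 and 254 TPM elsewhere. Ribosomal protein genes themselves could not enter the set by the rule, and their summed TPM was between 79214 and 104951 in the LPS + Ska columns and between 84419 and 89704 in the other columns. Of genes known from centrosomes and cilia, it held among others Sdccag8 at -0.81, Cep162 at -0.73 and C2cd3 at -0.54. Sdccag8 was at 4.64, 4.68 and 4.59 TPM in LPS + Ska and between 8.64 and 10.1 TPM elsewhere. These genes were picked after their values were seen and belong to none of the 20 lists, so how many such genes could have entered was not counted.

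Among the 6 genes of the set with the highest level, 4 lay close to the limit. Eef2, the elongation factor that moves the ribosome along mRNA, was measured at 1962, 1937 and 2080 TPM in DMSO, at 1807, 1788 and 1827 TPM in LPS and at 1267, 1238 and 1296 TPM in LPS + Ska, a difference of -0.51. The lincRNA AC158975.2 had a mean of 1506 TPM in DMSO, 1173 TPM in LPS and 735 TPM in LPS + Ska. Naca, a chaperone subunit at the ribosome exit, differed by -0.79 and was higher in LPS than in DMSO by 0.39, just within the limit. Fxyd5, Ddx39b and Itga4 differed by between -0.54 and -0.50.

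Of the 255 genes, 245 are protein-coding in GENCODE, and 2 identifiers had neither a symbol nor an entry there. The processed pseudogenes Hmgb1-ps2, Anp32b-ps1 and Ldha-ps2 differed by -0.65, -0.67 and -0.53, whereas their parent genes Hmgb1, Anp32b and Ldha differed by -0.03, -0.10 and -0.09. Reads can be split between a pseudogene and its parent, so these 3 values are uncertain. The antisense genes Mypopos (-0.90) and Airn (-0.62) overlap Mypop (-0.21) and Igf2r (-0.47), and the library kit does not separate them.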

How the data were processed

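RNA from RAW264.7 cells treated with DMSO, LPS or LPS + Ska (3 samples each) was sequenced by the authors, who deposited TPM values per Ensembl gene. The submitters' processing notes name fastp 0.20.1, HISAT2 2.2.1, StringTie 2.0 and the build mm10. Depth is unknown. Replicate 5 was the mean of replicates 6 and 7 in LPS and in LPS + Ska, and the columns were used as deposited.

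Genes were chosen by the rule given in the text on log2(mean TPM + 1). The genes and the lists were chosen with earlier results of these data known, so no test was made on the set. Named were the 12 lowest genes, the 6 of the highest TPM, 3 per list with at least 3 members, and 3 on either side of the limit. Any other gene was named after its values had been seen. Span, transcript length, exons and GC content came from GENCODE M21 and promoters from RefSeq (GRCm38.p6). Genes outside the set were tested with limma 3.58.1 in R 4.3.3 (log2(TPM + 1), mean TPM of at least 1, intensity trend), after the fit had been tested on simulated data. Alternatives covered pseudocount, scaling, filters, recovered values, columns left out, a replicate block and length trends. Some genes of the set are counted in the lists but not reported here by name.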

Additional observations from a re-analysis of the deposited data

How the results depend on the processing

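The set of 255 genes held 120 after median-ratio scaling, 109 of them in common, although all 255 stayed below 0 in LPS + Ska compared with LPS and 136 stayed below -0.5. It held 163 genes, 118 in common, when the trend of each column on genomic span was removed, an alternative chosen after the data had been seen. With 1 column left out it held between 213 (without LPS + Ska replicate 7) and 386 genes (without LPS + Ska replicate 6). Under the other alternatives it held between 237 and 282 genes. The median differences of the set kept within the spread between columns under every alternative run on them. The share spanning over 100 kb was 31.5% with the trend on transcript length removed and 20.5% with the trend on span removed, which takes away by construction what the share measures. It was between 34.6% and 39.5% with a column left out and between 37.1% and 39.6% with another pseudocount, another scaling or recovered values. For the 41 named genes, 519 of 533 recomputed differences stayed within their spread, 14 moved further and none changed sign. The 787 genes called lower became 516 at a mean TPM of at least 5, and without a fold change limit 2524 were called lower and 1139 higher instead of 429. Same-numbered columns of LPS and LPS + Ska deviated together, with correlations of 0.38, 0.15 and 0.13, but the tied columns leave 1 independent deviation per group, and against DMSO the correlations were between -0.03 and 0.08, so the numbers were not taken as a pairing. With the replicate block 771 genes were called lower and 427 higher. With 1 column left out, between 576 and 996 were called lower and between 316 and 503 higher. TPM carries no depth, so counting error could not be given for any gene.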
